A study of Nothobranchius furzeri with 9 samples.

Results

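Skeletal muscle of old *Nothobranchius furzeri* (Nfu, the turquoise killifish) was set against that of young fish across gene families. Of the 39396 entries of the expression table, the 17454 with a mean of at least 5 normalised counts over the 9 libraries of the series were compared, and 6 of those 9 libraries belong to the young and old groups. A normalised count is the number of reads on a gene divided by a scaling factor of its library, as deposited by the authors.

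All fish were males of the strain MZM-04/10, and each library came from the skeletal muscle of a single fish. The young group held 3 fish marked as 5 weeks old and the old group 3 fish marked as 35 weeks old. A further 3 fish of 20 weeks, the adult group, entered the estimate of the spread and are given for some genes and families only. A difference between old and young fish can therefore be present already at 20 weeks. The study's methods state ranges of age in place of single ages for adult and old animals. No fish carried a transgene or received a treatment according to the labels. The comparison addresses which genes of the muscle differ between growing and aged animals.

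Killifish keep growing after they reach sexual maturity, and their muscle grows by adding new fibres and by enlarging those already present. Growing muscle therefore holds dividing precursor cells, fibres that build ribosomes and contractile filaments, and connective tissue that lays down collagen. Aged vertebrate muscle is known for smaller fibres, slower protein synthesis and changed innervation. Whole tissue was sequenced, so for every gene below fewer cells of a type and less RNA per cell cannot be told apart.

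The young libraries held 11.72 to 12.92 M reads on genes and the old ones 7.96 to 12.71 M, with old fish 3 the shallowest. Titin (TTN) alone took 23.1 to 24.6% of all values in young and 25.4 to 27.1% in old libraries. Markers of muscle fibres were abundant at both ages, with a sum of 591030 to 643721 normalised counts over 7 entries in young and of 561484 to 767936 in old libraries, and 0 of the 7 were called. In a principal component analysis of the 6 libraries, the first component carried 56.6% of the variance and placed the 3 young libraries on the opposite side of the 3 old ones. The next component carried 17.1% and set old fish 2 apart from old fish 3.

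Ages were compared with limma on log2(normalised count + 1), a scale that understates the change of low genes. An entry counted as called if its p, adjusted by Benjamini-Hochberg over the 17454 entries, was no larger than 0.05 and its log2 fold change reached 1 or -1. By this rule 3098 entries were called, which is 17.7% of those tested. In old muscle 1381 entries (7.91%) were higher and 1717 (9.84%) lower. Young and old values did not overlap in 3018 of the 3098 called entries and in 42.0% of all entries tested. The median standard error of a log2 fold change was 0.31. With each library set to the same total the median of all entries moved from -0.03 to -0.29, and the calls split into 802 higher and 2605 lower. With the 20 most abundant entries left out of the totals they split into 968 and 2334. Changes are therefore best read against the median of all entries, and the median of each family counted below is given with equal library totals too. An exact permutation test of 3 against 3 fish cannot give a two-sided p below 0.1, so no such test is given for single genes.

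Lower calls were more frequent than higher ones among weakly expressed entries, and less frequent among abundant ones. Of the 5754 entries with a mean of 5 to below 20 normalised counts, 12.3% were lower in old fish and 4.99% higher. Of the 581 entries with a mean of 1000 to below 10000, 3.79% were lower and 16.2% higher. Among the 50 most abundant entries 4 were called higher and 3 lower.

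**Figure D1:**
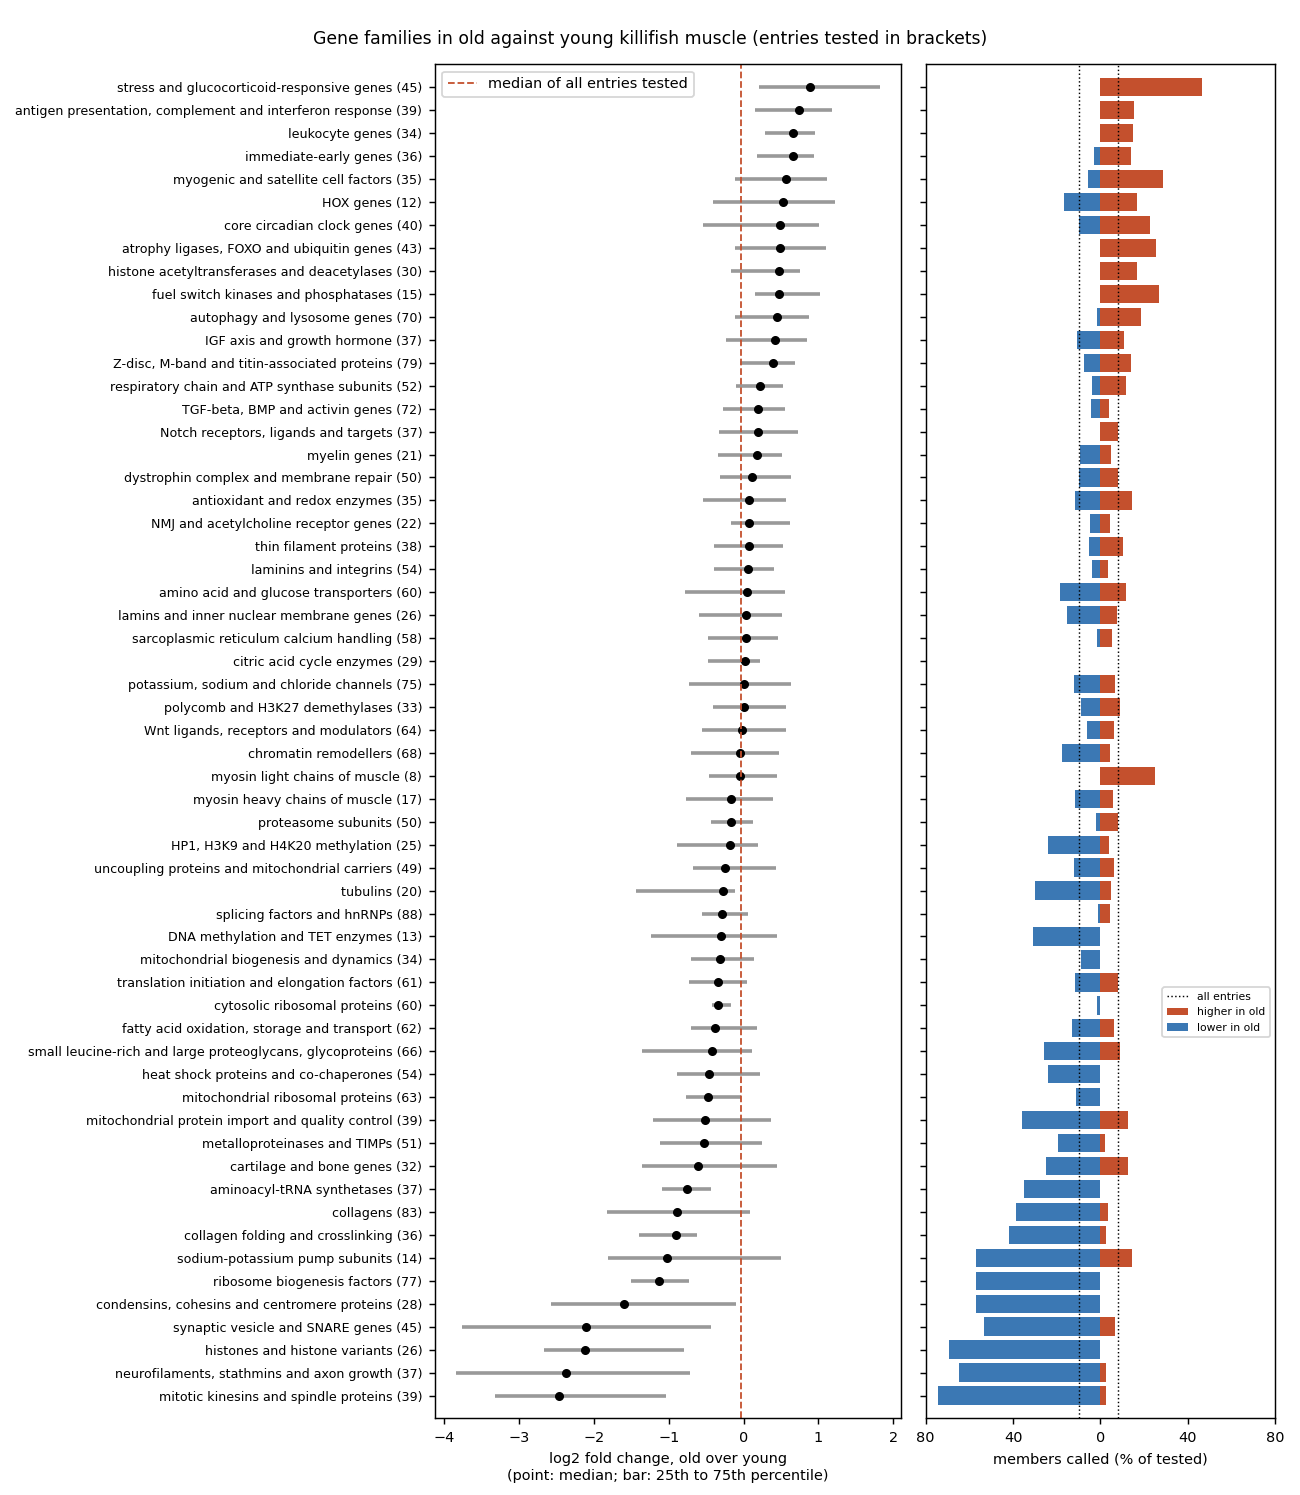
Left, the log2 fold change of old over young muscle in 58 gene families, with the median as a point and the range from the 25th to the 75th percentile as a bar; the dashed line marks the median of all entries tested (-0.03). Right, the percentage of tested members called higher (to the right) or lower (to the left), with dotted lines at 7.91% and 9.84%, the shares over all entries. Spindle, histone and neuronal families lie at the bottom and the stress-responsive family (median 0.88) at the top.

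The 8 entries of smallest p that were higher in old muscle included signalling proteins, transcription regulators and a subunit of the respiratory chain. EVA1C, a heparin-binding surface receptor, held 83, 74 and 54 normalised counts in the 3 young fish and 468, 567 and 436 in the old ones, a log2 fold change of 2.80 (SE 0.20, limma adjusted p = 4.94e-05). AKT1S1, a substrate of AKT that restrains the growth kinase complex mTORC1, stood at 726, 745 and 655 in young and at 2798, 2270 and 2462 in old fish, a change of 1.82 (SE 0.14). TACC2, a protein of centrosomes and microtubules, rose from 2651, 2175 and 2435 to 15296, 13050 and 11572 and was the most abundant of the 8. The rule that picked these 8 entries required young and old fish not to overlap. In all 3 genes the adult fish lay above the young ones.

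The remaining 5 of these entries were COX4I1, CNKSR1, RASGEF1B, ZBTB16B and CSRNP1B. CNKSR1, a scaffold of Ras signalling, was 3.76 higher on the log2 scale (SE 0.30) and one entry of COX4I1, a subunit of cytochrome c oxidase, 4.13 higher (SE 0.27). RASGEF1B, an exchange factor for Ras family proteins, had 16, 8 and 11 normalised counts in young, 517, 525 and 422 in adult fish and 154, 109 and 192 in old fish. ZBTB16B, a zinc finger regulator, had 27, 28 and 35 in young, 889, 1575 and 1435 in adult fish and 490, 243 and 306 in old fish. CSRNP1B, a nuclear protein, showed the same order, with adult values of 2902 to 3709 above old values of 760 to 995 and young values of 146 to 195. In these last 3 genes the adult fish were the highest of all.

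The 8 entries of smallest p that were lower in old muscle were led by genes of cell division, histones and early development. STMN1 (entry 383358), which destabilises microtubules, held 177, 123 and 162 normalised counts in young and 11, 9 and 10 in old fish, a log2 fold change of -3.80 (SE 0.27, limma adjusted p = 4.94e-05). ASPM (entry 591963), which acts at the spindle poles, held 287, 286 and 227 in young and 12, 23 and 7 in old fish. IGF2BP3, an RNA-binding protein of embryonic tissue in mammals, went from 298, 349 and 329 to 35, 68 and 43. MARCKSB, a substrate of protein kinase C, went from 270, 337 and 327 to 60, 51 and 62. In each of these 4 genes the adult values lay far below the young ones.

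A further 2 of them were at or under 3 normalised counts in each old fish. HIST1H4I (entry 615046), a histone H4 gene, had 58, 59 and 103 in young and 0 in every old fish, which is at least 24.4-fold lower against a floor of 3 per library. KANSL3 (entry 305262), 1 of 7 entries named for a subunit of a histone acetylating complex, had 56, 53 and 48 in young, 45, 96 and 82 in adult fish and 1 in every old fish, at least 17.4-fold lower. KANSL3 was thus as high in adult as in young fish. TUT1, a nuclear terminal uridylyltransferase, fell by 3.36 on the log2 scale (SE 0.21). The last of the 8 was a myosin heavy chain, described with its family.

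**Figure D2:**
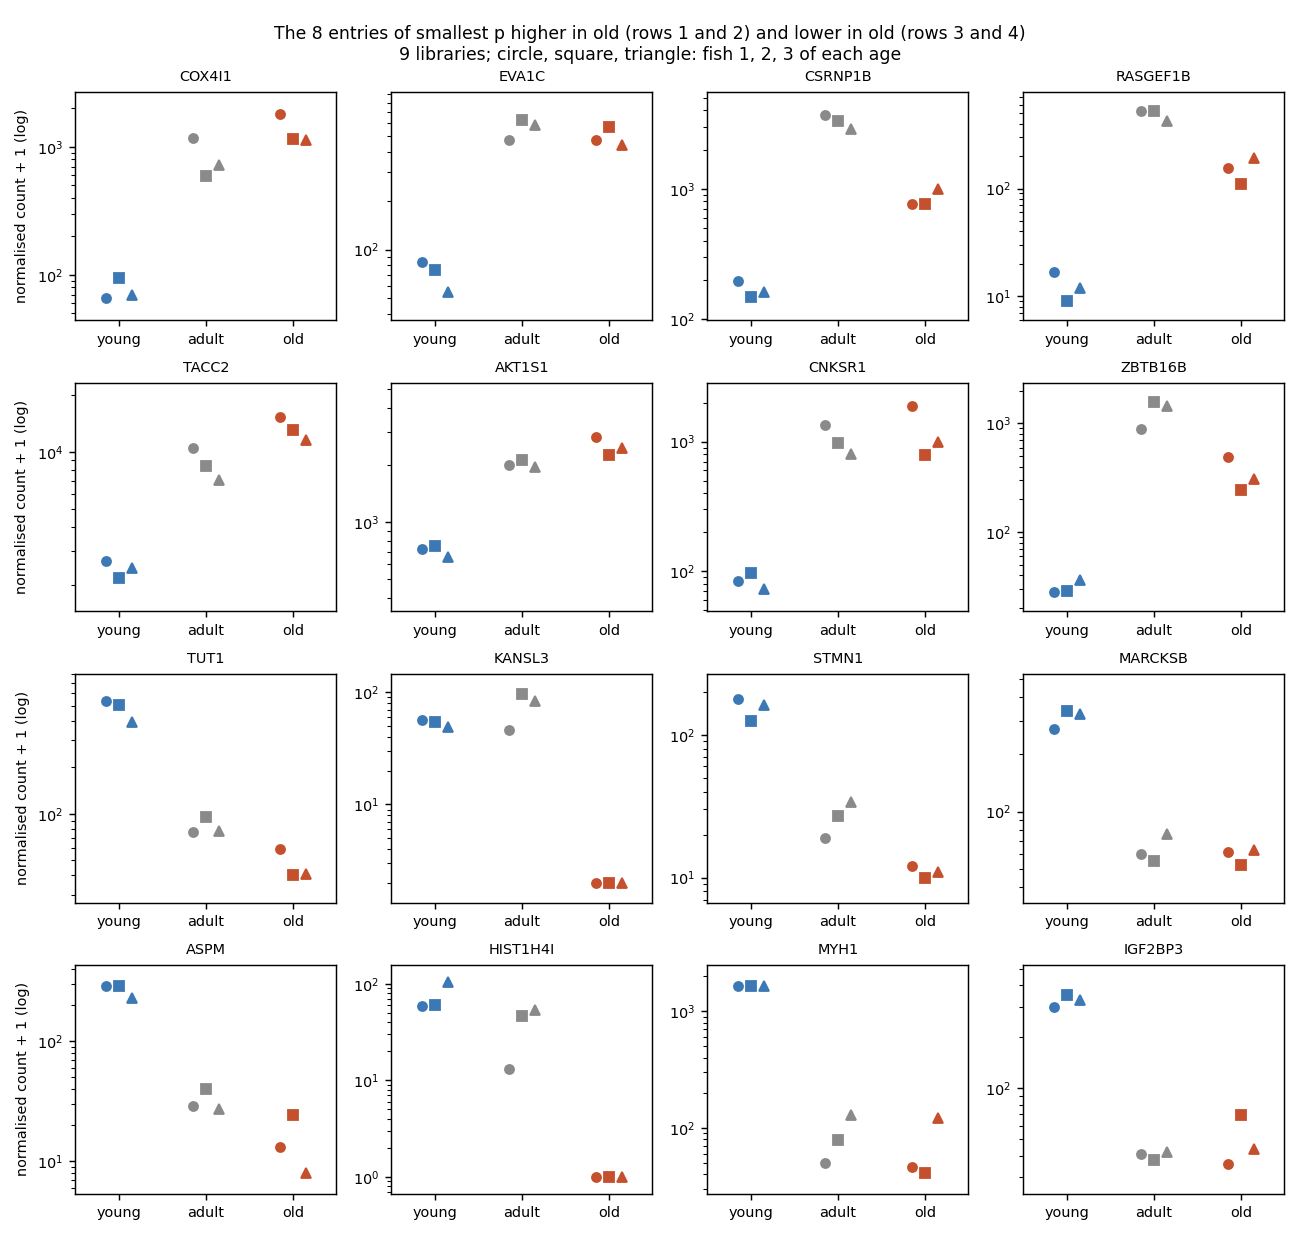
Normalised counts plus 1 (log axis, scaled for each panel) of the 8 entries of smallest p in each direction, in 3 young, 3 adult and 3 old fish. The young and old points are apart in every panel because the entries were picked that way. KANSL3 is the panel in which the adult points lie with the young ones and the old points at 1 normalised count.

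Genes of cell division were lower in old muscle. Of 39 tested entries for mitotic kinesins and spindle proteins 29 were called lower and 1 higher, with a median log2 fold change of -2.47 (-2.71 with equal library totals). Their summed value was 3036 to 4272 normalised counts in young and 1274 to 1306 in old fish. The adult fish, at 1326, 1331 and 1240, were close to the old ones. In 28 of the 29 entries called lower every adult fish was also below every young one. CENPE, the kinesin of the kinetochore, had 138, 103 and 86 in young and 14, 8 and 6 in old fish, a change of -3.46 (SE 0.32, adjusted p = 9.22e-05). The single entry called higher was KIF20B entry 620904, at 65, 45 and 51 in young and 139, 113 and 121 in old fish (1.21, SE 0.19), which with equal library totals came to 0.94 and was no longer called. The other entry of that name, 203774, was lower, at 43, 35 and 36 against 15, 8 and 9.

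Of 28 entries for condensins, cohesins and centromere proteins 16 were lower and 0 higher, with a median of -1.60 (-1.84 with equal library totals). Among members with a mean of at least 50 normalised counts the median was only -0.20. The summed value of the 28 was 3850 to 4152 in young and 3009 to 3592 in old fish. CENPF, a protein of the kinetochore, fell by 2.58 (SE 0.26) and SMC4, a condensin core subunit, by 2.22 (SE 0.24). The most abundant member, the cohesin subunit RAD21, had 940 to 1085 normalised counts in young and 755 to 985 in old fish, and these ranges overlapped (-0.25, adjusted p = 0.23). CKAP5, the most abundant of the spindle genes and a general microtubule polymerase, was also not called (0.05, SE 0.16). Among tubulins 6 of 20 entries were lower and 1 higher (median -0.27, and -0.54). TUBB4B was lower in entry 28786, at 374, 329 and 341 against 109, 133 and 124. The more abundant TUBB4B entry 226184 was not called, at 654, 780 and 633 against 1023, 471 and 498 (-0.14).

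Histone genes followed the division genes. Of 26 tested entries 18 were lower and 0 higher, with a median of -2.12 (-2.38 with equal library totals), and their sum was 3475 to 3808 in young and 1080 to 1536 in old fish. HIST2H2BE (entry 730442), a histone H2B, had 104, 98 and 120 in young and 22, 15 and 17 in old fish, a change of -2.52 (SE 0.23). HIST2H3D (entry 975191), a histone H3 and the most abundant of them, went from 637, 674 and 705 to 473, 189 and 248 (-1.25, SE 0.28). Without old fish 2 this last change was -0.97 and was not called. Histone names carry up to 10 entries each, and reads that fitted several genes were left out before counting, so single histone values are uncertain.

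Enzymes that modify chromatin divided by kind. Histone acetyltransferases and deacetylases had 5 of 30 entries higher and 0 lower, with a median of 0.48 (0.20 with equal library totals, against -0.29 over all entries). KAT2B, an acetyltransferase also known as PCAF, rose from 184, 154 and 190 to 667, 602 and 513 (1.75, SE 0.15, adjusted p = 8.53e-05). HDAC9B, a class IIa deacetylase of muscle, rose from 234, 243 and 259 to 865, 757 and 611, and KAT6B, another acetyltransferase, from 555, 455 and 622 to 1354, 1432 and 1511. None of these groups overlapped.

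Polycomb genes and the demethylases of the same histone residue had 3 of 33 entries higher and 3 lower, shares close to those over all entries, with a median of 0.01 (-0.27 with equal library totals). The 2 catalytic subunits of the methylating complex differed in direction. EZH1 held 86, 64 and 90 normalised counts in young and 354, 282 and 292 in old fish, a rise of 1.95 (SE 0.21, adjusted p = 0.000203). EZH2 held 133, 157 and 114 in young, 31, 46 and 30 in adult fish and 58, 75 and 46 in old fish, a fall of 1.18 (SE 0.25, adjusted p = 0.00596). The demethylase KDM6BB went from 676, 812 and 733 to 1040, 1701 and 1320 without reaching the limit of fold change (0.84, SE 0.20). AEBP2, a cofactor of the complex, was lower (-2.01) and PCGF5A, a subunit of the other polycomb complex, higher (1.51).

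Genes that copy DNA methylation after replication were lower. UHRF1, which recruits the maintenance methyltransferase, went from 171, 187 and 142 to 21, 11 and 27 (-3.10, SE 0.36) and DNMT1, that methyltransferase, from 209, 222 and 212 to 75, 65 and 81 (-1.53, SE 0.18). The family had 4 of 13 entries lower and 0 higher, with a median of -0.30 (-0.57 with equal library totals), and the 4 became 2 without young fish 2, without young fish 3 or without old fish 3. TET1, which oxidises methylcytosine, was the most abundant member and had 310, 288 and 284 against 488, 535 and 416, a change of 0.70 that did not reach the limit.

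In the family of heterochromatin protein 1 and of H3K9 and H4K20 methylation 6 of 25 entries were lower and 1 higher, with a median of -0.18 (-0.44 with equal library totals). SUV39H1A, an H3K9 methyltransferase, went from 134, 106 and 83 to 17, 11 and 3 (-3.49, SE 0.47), and CBX5, heterochromatin protein 1 alpha, from 237, 313 and 368 to 110, 130 and 114 (-1.35, SE 0.20). The member called higher, KDM4A, had a change of 1.00 and lost its call with equal library totals (0.73) and without young fish 2 (0.86). Remodellers had 12 of 68 entries lower and 3 higher (median -0.05, and -0.32 with equal library totals), and the 12 became 5 without old fish 1. HELLS, a remodeller of dividing cells, fell from 157, 163 and 159 to 23, 24 and 43, while SMARCA2, an ATPase of the SWI/SNF complex, had 833, 841 and 820 against 1924, 1787 and 1682 (1.11, SE 0.13), below the limit with equal library totals (0.83).

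Among 17 tested entries for muscle myosin heavy chains 1 was higher and 2 lower, with a median of -0.17 (-0.45 with equal library totals, at which 4 were lower), and among 8 for light chains 2 were higher and 0 lower (median -0.05, and -0.33). The most abundant, MYH4 entry 488947, had 196571, 140058 and 192199 normalised counts in young and 271535, 401694 and 173863 in old fish, and these groups overlapped (0.61, SE 0.38, adjusted p = 0.26). The changes concerned other members of the family. MYH6 (entry 202270), named for a cardiac chain of mammals, went from 81654, 84930 and 115913 to 13180, 10878 and 21712 (-2.67, SE 0.28, adjusted p = 0.000152). MYH1 (entry 966928) had 1647, 1636 and 1656 in young, 49, 78 and 127 in adult fish and 45, 40 and 120 in old fish, a change of -4.75 (SE 0.40). MYH4 entry 800895 rose from 9143, 4721 and 6191 to 24170, 28181 and 19490 (1.88, SE 0.24). These names carry 3 to 5 entries each and come from other vertebrates, so a fibre type cannot be read from them.

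**Figure D3:**
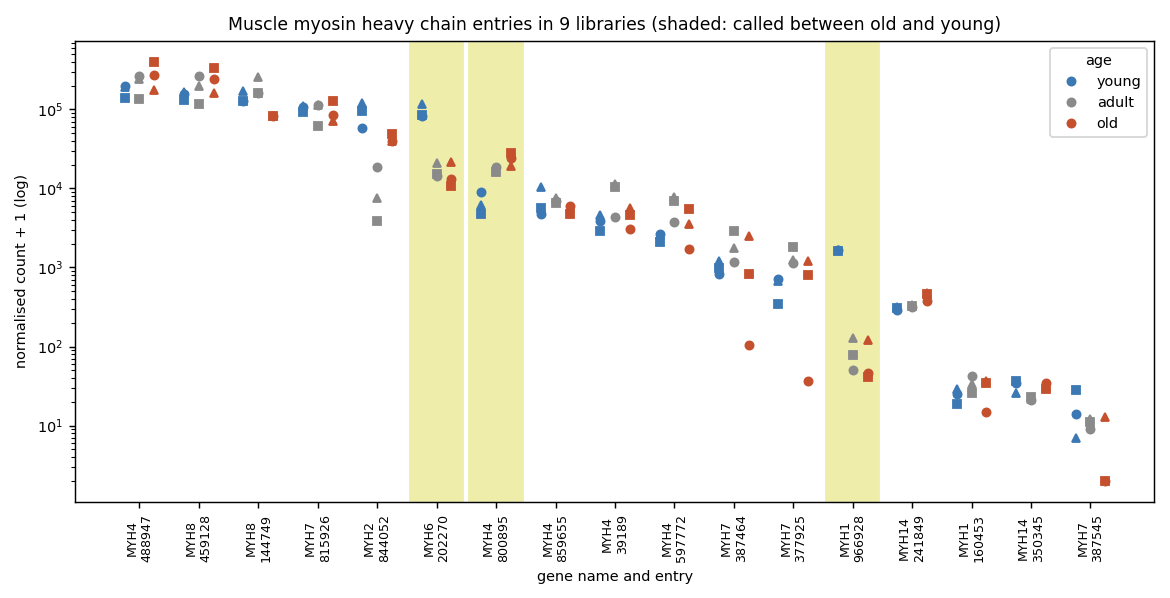
Normalised counts plus 1 (log axis) of 17 muscle myosin heavy chain entries in 3 young, 3 adult and 3 old fish, ordered by mean; shading marks the 3 entries called between old and young. MYH6 and MYH1 966928 drop below the young points in adult fish and old fish alike, and MYH4 800895 rises.

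Thin filament genes had 4 of 38 entries higher and 2 lower (median 0.08, and -0.20 with equal library totals). The higher ones included TNNC1, the troponin C of slow and cardiac muscle, at 513, 609 and 598 against 1233, 1664 and 2091, and TNNT2D, a cardiac-type troponin T, at 130, 134 and 153 against 667, 372 and 1375. The lower ones were minor entries of ACTC1, an actin of striated muscle (entry 98840 at 217, 105 and 239 against 16, 38 and 38), while its main entry, 337759, was not called (0.27, SE 0.37).

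Genes of the Z-disc, M-band and titin-associated proteins had 11 of 79 entries higher and 6 lower (median 0.40). With equal library totals the median was 0.12 and the split turned to 8 higher and 10 lower, and without old fish 1 the 6 became 3. PDLIM5, a Z-disc adaptor of PDZ and LIM type, rose from 711, 715 and 679 to 6193, 3309 and 3697 (2.59, SE 0.25) and MYOZ3A, a calcineurin-binding Z-disc protein, from 240, 413 and 409 to 3038, 1244 and 2552 (2.63, SE 0.34). The related PDLIM3 was lower, at 357, 232 and 430 against 147, 110 and 146. XIRP1, an actin-binding protein of the myotendinous junction, was lower in entry 962650 (3147, 3383 and 6122 against 1003, 2037 and 1396) and higher in entry 25094 (835, 811 and 990 against 3567, 1680 and 1594). Calcium handling genes of the sarcoplasmic reticulum had 3 of 58 entries higher and 1 lower (median 0.03, and -0.24 at equal library totals), and 8 lower without old fish 3, with STIM1, the calcium sensor of the reticulum, at 89, 93 and 68 against 306, 194 and 221.

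Myogenic and satellite cell factors had 10 of 35 entries higher and 2 lower, with a median of 0.57. With equal library totals the median was 0.30, and 6 were higher and 4 lower. The list also held MEF2 factors, MSTNB and IGFN1, and entries of MEF2A, MEF2AA, MEF2B and MEF2C were among the higher ones. Of 5 tested entries of satellite cell markers 1 was higher, PAX3B entry 507096, and 0 lower. MYF5 (0.23) and MYOG (0.15) were not called. MEF2C, which acts with the myogenic factors, rose in entry 539482 from 580, 598 and 535 to 1549, 1531 and 1176 (1.30, SE 0.21). Its more abundant entry 135291 stayed below the limit, at 2015, 2414 and 2130 against 4470, 4447 and 3810 (0.96, SE 0.20). PAX7, which marks satellite cells, had 62, 57 and 64 in young and 112, 110 and 62 in old fish and was not called, nor was MYOD1 at 925 to 1074 in young and 731 to 1120 in old fish. The adhesion molecule NCAM1 was lower in entry 829950, at 82, 96 and 95 against 37, 53 and 29. Its entry 826880 was not called, at 30, 57 and 36 against 76, 29 and 16 (-0.25).

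At the neuromuscular junction 1 of 22 entries was higher and 1 lower (median 0.08, and -0.20 with equal library totals). AGRN, the nerve-derived organiser of the synapse, went in entry 521585 from 238, 260 and 225 to 47, 92 and 129 (-1.53, SE 0.30). Its weaker entry 765645 was not called, at 6, 13 and 10 against 2, 8 and 9 (-0.67, SE 0.55). DOK7 entry 381998, named for an adaptor inside the fibre, had 74, 104 and 96 against 273, 166 and 179 (1.14, SE 0.22). It was not called without old fish 1 or with equal library totals. The other DOK7 entry, 435336, was not called (0.67, SE 0.24). CHRNE, the receptor subunit of mature junctions, was not called (0.17, SE 0.16).

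Neuronal transcripts were lower in old muscle, several of them at or under 3 normalised counts in every old fish. Of 37 tested entries for neurofilaments, stathmins and axon growth proteins 24 were lower and 1 higher (median -2.38, and -2.56 with equal library totals), and of 45 for synaptic vesicle proteins 24 were lower and 3 higher (median -2.11, and -2.36). NEFH, the heavy neurofilament chain, had 78, 229 and 244 normalised counts in young, 0, 2 and 2 in adult fish and 0, 1 and 0 in old fish, which is at least 61.2-fold lower. SNAP25, a protein of synaptic vesicle fusion, had 196, 658 and 332 in young and 19, 11 and 10 in old fish (-4.67, SE 0.43), and VAMP1, its partner on the vesicle, had 53, 195 and 106 against 1, 0 and 3. The 3 entries called higher among synaptic genes became 0 without young fish 1, young fish 3 or old fish 1, and with equal library totals.

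The 3 young fish were unequal in these genes. Young fish 1 was the lowest of the 3 in 20 of the 24 axonal and in 22 of the 24 synaptic entries called lower. Over all 1717 entries called lower its value was at most 0.5 of the lower of the other young fish in 180 (10.5%), against 18 (1.05%) for young fish 2 and 26 (1.51%) for young fish 3. Over all entries tested these shares were 3.83%, 3.43% and 3.75% for young fish 1, 2 and 3. With each young fish left out in turn, 19 to 23 axonal and 20 to 25 synaptic entries were called lower.

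Among markers of nerve and Schwann cells 7 of 13 entries were lower and 0 higher, with a sum of 3559 to 8129 in young and 3519 to 4334 in old fish. GFAP, an intermediate filament of astrocytes and other glia, had 180, 898 and 570 in young, 5, 0 and 1 in adult fish and 1, 3 and 0 in old fish. NEFMA, the middle neurofilament chain, had 294, 1039 and 768 in young and 2, 1 and 4 in old fish. MBPB, a protein of compact myelin, had 1535, 2924 and 2366 in young and 2342, 2398 and 3181 in old fish and was not called, and neither entry of SOX10, a factor of Schwann cells, was called. The part of tissue makeup in these differences was not tested.

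**Figure D4:**
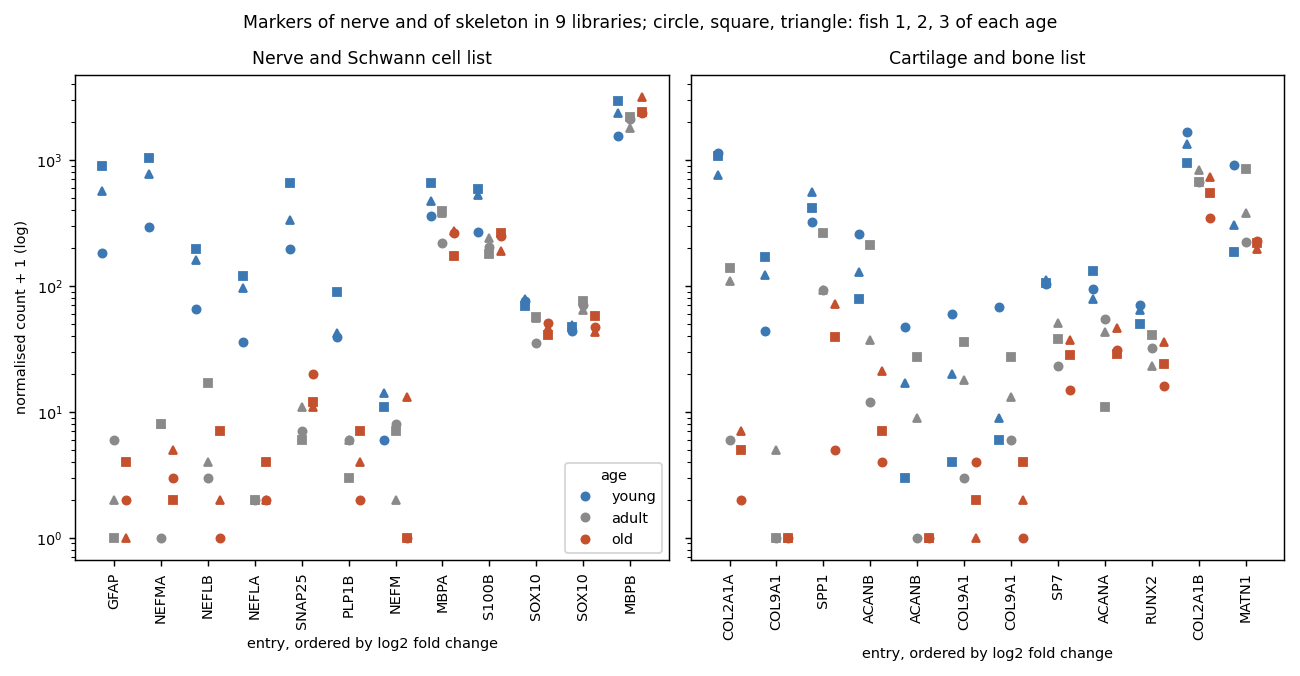
Normalised counts plus 1 (log axis) of 12 entries from the nerve and Schwann cell list and 12 from the cartilage and bone list in 3 young, 3 adult and 3 old fish. GFAP, NEFMA, NEFLA, NEFLB and SNAP25 are far higher in young fish than in all others, with young fish 1 (circles) the lowest of the young, whereas MBPB and one SOX10 entry overlap between ages.

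Potassium, sodium and chloride channels had 9 of 75 entries lower and 5 higher, close to the shares over all entries, with a median of 0.01 (-0.26 with equal library totals, at which 12 were lower and 3 higher), and 8 were higher without old fish 2. SCN8A and SCN8AA, sodium channels of axons, were among the lower ones, at 66, 170 and 136 against 6, 11 and 10 and 38, 133 and 80 against 1, 3 and 0. The sodium-potassium pump family had 8 of 14 entries lower and 2 higher (median -1.03, and -1.30 with equal library totals), and 4 or 5 lower without young fish 3 or 2. Young fish 1 was the lowest of the young in 7 of the 8. The summed value of the family did not fall, at 6365 to 8556 in young and 7874 to 10480 in old fish. A single entry held 77.4% of the family. KCNJ12, an inward rectifier of muscle, rose from 256, 313 and 312 to 1109, 833 and 628 (1.51, SE 0.20).

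Myelin genes as a list had 1 of 21 entries higher and 2 lower (median 0.18, and -0.04 with equal library totals). The higher one was the abundant PRX entry 85341, named for periaxin, a scaffold of Schwann cells, at 5133, 3954 and 4606 against 20189, 17616 and 15787 (1.97, SE 0.19). The name has 16 entries in this table, and which protein this entry encodes was not examined.

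Collagens were lower in old muscle. Of 83 tested entries 32 were lower and 3 higher (1 higher without any 1 young fish), with a median of -0.89 (-1.16 with equal library totals), and their sum went from between 134314 and 167615 normalised counts to between 49153 and 103517. COL1A1A, a chain of the main fibrillar collagen, had 35452, 33538 and 42485 in young, 20379, 11756 and 23393 in adult fish and 8337, 23311 and 13672 in old fish (-1.42, SE 0.35, adjusted p = 0.013). Old fish 2 was the highest of the old group in the sum and in COL1A1A, and without young fish 3 the call of COL1A1A was lost. COL4A6, a chain of basement membrane, was higher in both of its entries (entry 856149 at 46, 44 and 33 against 98, 95 and 98). Neither was called with equal library totals, and the other entry also lost its call without any 1 of the young fish, without old fish 1 and without old fish 2. COL4A1 entry 944985, of the same collagen type, had 20, 16 and 17 in young and 0 in every old fish.

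Enzymes that fold and cross-link collagen were lower as well, with 15 of 36 entries lower and 1 higher (median -0.90, and -1.16 with equal library totals). PLOD2, a lysyl hydroxylase, had 193, 159 and 209 in young and 70, 76 and 75 in old fish (-1.32, SE 0.18) and LOXL4 (entry 975045), a lysyl oxidase, 40, 38 and 55 against 9, 13 and 10. The exception was P4HA1, a catalytic subunit of prolyl hydroxylase, at 122, 108 and 99 against 471, 467 and 306 (1.89, SE 0.25). Metalloproteinases and their inhibitors had 10 of 51 entries lower and 1 higher (median -0.53, and -0.78 with equal library totals), with 3 lower when young fish 3 was left out and 17 at equal totals. With a mean of at least 50 normalised counts required, the median of metalloproteinases and inhibitors was 0.04. Laminins and integrins had 2 of 54 higher and 2 lower (median 0.06). With equal library totals they had a median of -0.22 with 0 higher and 6 lower, and the 2 higher became 0 without old fish 2 and the 2 lower became 0 without young fish 1, young fish 3 or old fish 1. LAMC1, the most abundant, had 3528, 3520 and 4219 against 3225, 3269 and 2688. HSPG2, perlecan of the basement membrane, was not called (0.04, SE 0.13).

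Genes of cartilage and bone were partly lower. Of 32 tested entries in the family 8 were lower and 4 higher (median -0.61, and -0.85 with equal library totals, at which 12 were lower and 3 higher), and the 8 became 3 without young fish 1 and 4 without old fish 1. With a mean of at least 50 normalised counts required, the family median was -0.03. Among 12 tested entries of cartilage and bone markers 11 were called lower and 0 higher, and their sum was 3166 to 4785 in young and 636 to 1147 in old fish. COL2A1A, a chain of cartilage collagen, had 1140, 1080 and 760 in young, 5, 137 and 108 in adult fish and 1, 4 and 6 in old fish. MATN3 entry 175743, a cartilage matrilin, had 18, 87 and 63 in young and 0, 0 and 1 in old fish, at least 18.7-fold lower. SP7, the osteoblast factor osterix, had 102, 104 and 110 against 14, 27 and 36, and SPP1, osteopontin, 320, 415 and 555 against 4, 38 and 71. The 11 became 7 without young fish 1, young fish 3 or old fish 1. Whether skeletal tissue in the samples bears on the collagens was not tested; COL1A1A is also made in bone.

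Proteoglycans and matrix glycoproteins had 17 of 66 entries lower and 6 higher (median -0.42, and -0.70 with equal library totals), and 11 lower and 2 higher without young fish 3. Both entries of FBLN1, fibulin of elastic fibres, were higher, one of them not without young fish 2, the first (135057) at 45, 11 and 22 against 104, 108 and 181. UCMAB, a cartilage matrix protein, rose from 10, 20 and 10 to 52, 86 and 71 (2.34, SE 0.31), as did SOX5, a factor of cartilage formation (73, 83 and 82 against 236, 194 and 183).

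None of 29 tested entries for enzymes of the citric acid cycle was called by limma, with a median of 0.02 (-0.25 with equal library totals, against -0.29 over all entries). Of the 29, 9 had an unadjusted p under 0.05 and 2 an adjusted p within the limit but too small a change, and without young fish 1 or without old fish 3 a single entry was called. Respiratory chain and ATP synthase subunits had 6 of 52 entries higher and 2 lower (median 0.22), and with equal library totals the median was -0.05, with 4 higher and 4 lower. COX7A1, the muscle form of a cytochrome c oxidase subunit, rose from 218, 297 and 248 to 805, 666 and 527 (1.38, SE 0.18), while COX5B, another subunit, fell from 77, 113 and 105 to 30, 37 and 19 (-1.77, SE 0.30). ATP5B, the most abundant, had 5260, 6258 and 6030 against 5554, 5753 and 5039.

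Mitochondrial protein import and quality control genes had 14 of 39 entries lower and 5 higher (median -0.52, and -0.80 with equal library totals). HSPD1, the chaperonin of the matrix, had 1243, 1498 and 1418 in young, 341, 361 and 593 in adult fish and 393, 416 and 459 in old fish (-1.71, SE 0.20, adjusted p = 0.000295), and TOMM5, a subunit of the outer membrane translocase, 86, 82 and 94 against 14, 13 and 13. PINK1, the kinase that marks damaged mitochondria, rose from 150, 235 and 153 to 444, 548 and 416 and FUNDC1 entry 110267, a mitophagy receptor, from 52, 52 and 56 to 178, 111 and 156. Mitochondrial biogenesis and dynamics genes, a separate family, had 3 of 34 entries lower and 0 higher (median -0.31). The lower share, 8.82%, was close to the 9.84% over all entries. With equal library totals 6 were lower and the median was -0.58. In that family C10ORF2, the mitochondrial DNA helicase Twinkle, fell from 104, 159 and 142 to 16, 18 and 27. CLUHA, which binds mRNAs of mitochondrial proteins, fell from 2150, 2865 and 2693 to 805, 1246 and 1014. UCP2, an uncoupling protein, had 30, 67 and 38 in young, 3235, 3257 and 3687 in adult fish and 404, 387 and 682 in old fish.

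Of 15 entries for regulators of the choice of fuel 4 were called higher and 0 lower (median 0.47, and 0.20 with equal library totals), and the sum of the family was 2957 to 3628 in young and 7351 to 12879 in old fish, a ratio of 3.26. PFKFB3 and PFKFB1, which set the level of a fructose bisphosphate that activates glycolysis, rose by 2.20 (SE 0.22) and 1.83 (SE 0.24). FBP2, the muscle fructose bisphosphatase, acts on a different fructose bisphosphate and against the direction of glycolysis. It had 846, 1645 and 659 in young and 5414, 8314 and 3277 in old fish (2.44, SE 0.39). Genes of fatty acid oxidation, storage and transport had 8 of 62 entries lower and 4 higher (median -0.38, and -0.65 with equal library totals, at which 12 were lower and 2 higher), and 5 lower without young fish 2 or old fish 1. SCD, a desaturase, fell from 39, 54 and 57 to 3, 11 and 7, and DGAT1B, of triglyceride synthesis, rose from 86, 78 and 103 to 233, 204 and 211.

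Among antioxidant and redox genes 5 of 35 entries were higher and 4 lower (median 0.08). With equal library totals the median was -0.19 and 1 was higher and 5 lower, and without old fish 1 there were 3 higher and 2 lower, and without young fish 2 there were 3 of each. TXNIP, an inhibitor of thioredoxin and of glucose uptake, rose from 365, 199 and 236 to 752, 855 and 1180 (1.82, SE 0.24), and GCLM, a subunit of the enzyme that limits glutathione synthesis, fell from 482, 528 and 630 to 146, 247 and 271 (-1.34, SE 0.23).

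The factors that assemble ribosomes were lower, while few ribosomal proteins were called. Of 77 tested biogenesis factors 44 were lower and 0 higher, with a median of -1.13 (-1.41 with equal library totals), and their sum was 33076 to 41195 in young and 20136 to 20842 in old fish. NOC4L, a nucleolar protein of the small subunit, had 321, 461 and 531 in young and 85, 125 and 88 in old fish (-2.12, SE 0.23, adjusted p = 0.000203), and BOP1, of the large subunit, 389, 430 and 411 against 101, 167 and 121 (-1.68, SE 0.20). The most abundant, the helicase DDX21, was not called, at 6197, 6284 and 6594 against 5730, 5400 and 4511. Of 60 cytosolic ribosomal protein entries 1 was lower and 0 higher (median -0.34, and -0.62), and that was RPS27 entry 945435, whose call was lost without old fish 1. In 33 of the 44 biogenesis factors young fish 1 was the lowest of the young, and 37 to 46 of them were called when each library was left out in turn.

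**Figure D5:**
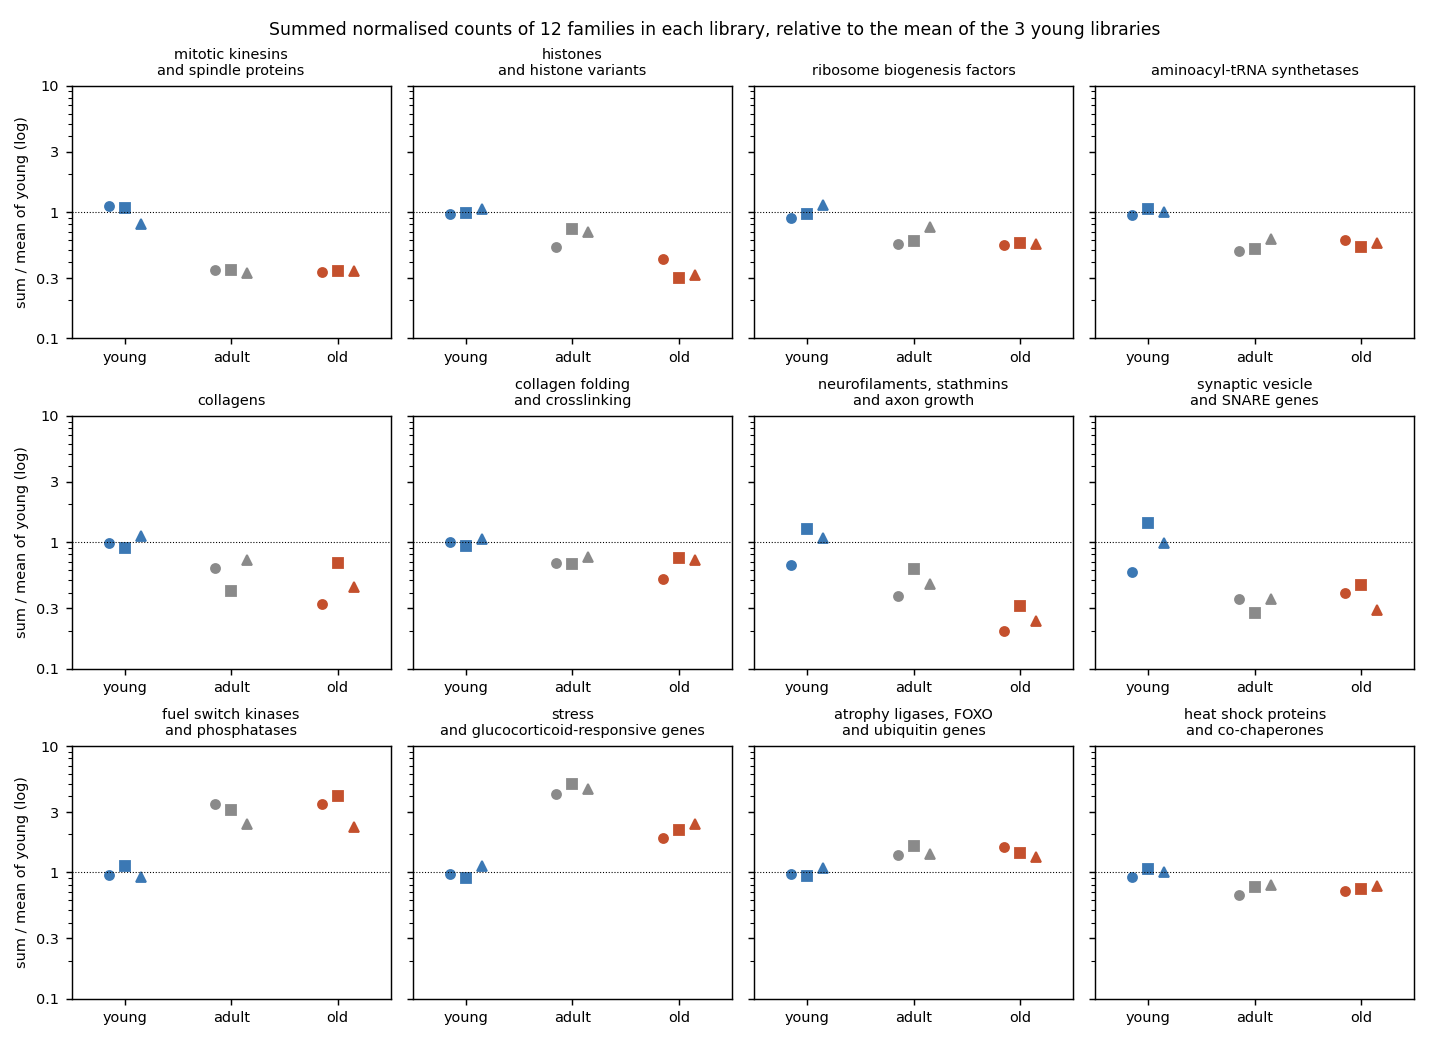
Summed normalised counts of 12 gene families in each of 9 libraries, divided by the mean of the 3 young libraries (log axis; circle, square and triangle for fish 1, 2 and 3). Ribosome biogenesis factors and tRNA synthetases lie below 1 in all adult and old fish, the fuel family lies above 1 in all of them, and the stress-responsive genes are highest in adult fish; young fish 1 is lowest among the young in both neuronal families.

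Aminoacyl-tRNA synthetases, which load amino acids onto tRNAs, had 13 of 37 entries lower and 0 higher, with a median of -0.75 (-1.02 with equal library totals) and a sum of 27362 to 30025 in young and 15262 to 17342 in old fish. WARS, for tryptophan, went from 918, 1142 and 702 to 240, 216 and 175 (-2.11, SE 0.23). Translation factors had 7 of 61 entries lower and 5 higher (median -0.34), and 16 lower and 3 higher with equal library totals (median -0.61). EEF2, the elongation factor that moves the ribosome along the mRNA, went in entry 813816 from 19208, 20812 and 20708 to 6748, 7780 and 6086 (-1.56, SE 0.23), whereas EEF1A1, which delivers the tRNAs, was not called, at 31686 to 38185 in young and 31293 to 44073 in old fish. EIF4EBP2, a repressor of initiation, rose from 182, 145 and 131 to 394, 521 and 553 (1.67, SE 0.21), and EIF5A2, an elongation factor, from 98, 140 and 139 to 605, 366 and 429.

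Splicing factors had 4 of 88 entries higher and 1 lower (median -0.29), and 2 higher and 7 lower with equal library totals (median -0.57). The higher ones included the muscleblind proteins MBNL3, at 58, 77 and 49 against 242, 238 and 238 (1.97, SE 0.19), and MBNL1 entry 270037 (1.27, SE 0.21), which with equal library totals was no longer called.

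Of 43 tested entries for muscle ubiquitin ligases, FOXO factors and ubiquitin 11 were higher and 0 lower (median 0.49), and 10 higher and 2 lower with equal library totals (median 0.26). ASB15 entry 829769, a muscle ligase adaptor, had 10, 8 and 5 in young and 154, 108 and 97 in old fish (3.81, SE 0.31, adjusted p = 6.37e-05), and FBXO40 entry 117003, a muscle F-box protein that targets IRS1 in the mouse, had 150, 156 and 189 against 592, 516 and 482 (1.68, SE 0.17). Autophagy and lysosome genes had 13 of 70 entries higher and 1 lower (median 0.45, and 0.18), with 8 higher without young fish 3 or old fish 1, and 7 higher and 5 lower with equal library totals. OPTN entry 712831, an autophagy receptor, had 48, 40 and 43 against 161, 149 and 120, and CTSD entry 385279, a lysosomal protease, 7, 8 and 9 against 36, 33 and 36. Of 50 proteasome entries 4 were higher and 1 lower (median -0.17), close to or below the shares over all entries. With equal library totals 3 were higher and 5 lower (median -0.45), and 2 were higher without young fish 1 or old fish 1. Of its regulators PSMF1 rose (217, 229 and 244 against 819, 585 and 685) and PSME3, an activator, fell (353, 401 and 464 against 132, 178 and 160).

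Heat shock proteins and co-chaperones had 13 of 54 entries lower and 0 higher (median -0.47, and -0.74 with equal library totals). HSP70.3 entry 896703, an inducible chaperone, had 284, 349 and 89 in young and 16, 16 and 26 in old fish (-3.39, SE 0.45), and HSPA8, its constitutive relative and the most abundant of the list, 22986, 27707 and 24330 against 18539, 17410 and 20639 (-0.41, not called).

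Genes of antigen presentation, complement and interferon response had 6 of 39 entries higher and 0 lower (median 0.74, and 0.47 with equal library totals). Their sum was 1518 to 2546 in young, 2311 to 6547 in adult and 2484 to 5548 in old fish, so young and old overlapped. B2M entry 245838, the light chain of class I molecules, had 60, 76 and 68 in young and 181, 187 and 173 in old fish, and these 2 groups did not overlap. The adult fish had 196, 434 and 161. The 6 entries called higher became 2 without young fish 2 and with equal library totals, and 10 without old fish 2. C3, the central complement protein, varied within the ages, with 372, 75 and 75 in young and 152, 47 and 1020 in old fish. Leukocyte genes had 5 of 34 entries higher and 0 lower (median 0.66, and 0.41 with equal library totals). At those totals and without young fish 3 or old fish 1, 2 were higher. NCF1, of the phagocyte oxidase, had 10, 6 and 4 in young against 33, 18 and 19 in old fish. The adult fish were higher still, at 64, 56 and 34. Red blood cell markers had 4 of 7 entries lower, which became 1 without young fish 1 and 2 without young fish 2, old fish 1 or old fish 3, and their sum was 2589 to 4017 in young and 1291 to 1784 in old fish.

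Stress and glucocorticoid-responsive genes were the family with the largest median among the 58, 0.88 (0.61 with equal library totals). Of 45 entries 21 were higher and 0 lower, and 19 to 22 were higher when each library was left out in turn and 15 with equal library totals. TSC22D3 entry 837650, the glucocorticoid-induced leucine zipper, had 133, 138 and 176 in young and 722, 544 and 439 in old fish (1.91, SE 0.19, adjusted p = 0.000144). FKBP5, a co-chaperone of the glucocorticoid receptor and the most abundant of the list, was not called (1517, 1300 and 2456 against 1312, 2730 and 4507). The sum of the list was 6885 to 8565 in young and 14291 to 18465 in old fish, and the adult fish exceeded both. This list was written with the study's own gene list known and is no independent evidence of its direction.

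Clock genes had 9 of 40 entries higher and 4 lower (median 0.49, and 0.22 with equal library totals, at which the split turned to 5 higher and 6 lower), with 5 higher without young fish 3 and 1 lower without young fish 2 or 3. NFIL3 entry 619878, a repressor of clock output genes, had 43, 34 and 32 in young and 580, 310 and 456 in old fish (3.56, SE 0.30), and HLF entry 562622, an activator of them, 292, 310 and 278 against 605, 540 and 856. The call of HLF was lost with equal library totals, with the top entries left out of the totals and without old fish 3. Immediate-early genes had 5 of 36 entries higher and 1 lower (median 0.65, and 0.39 with equal library totals), with 9 higher without old fish 2. The lower one was NR4A3, an orphan nuclear receptor, at 555, 1446 and 1429 against 154, 171 and 160 (-2.69, SE 0.44). All fish were killed at the same hour of the day according to the study's methods.

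In the growth hormone and insulin-like growth factor axis 4 of 37 entries were higher and 4 lower (median 0.42, and 0.15 with equal library totals), and 2 were higher without young fish 3. GHR entry 274331, the growth hormone receptor, had 306, 323 and 297 in young and 861, 733 and 667 in old fish (1.28, SE 0.14), and IRS2, an insulin receptor substrate, 434, 458 and 628 against 1211, 2017 and 1674 (1.68, SE 0.22). The RNA-binding protein IGF2BP2A moved down with IGF2BP3, from 434, 399 and 474 to 152, 135 and 196.

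Among other signalling families, Notch genes had 3 of 37 entries higher and 0 lower (median 0.19, and -0.06 with equal library totals). The higher share, 8.11%, was close to the 7.91% over all entries. Called higher were the ligands DLL4 entry 952089 at 27, 23 and 22 against 82, 66 and 77 and JAG1 entry 644992 at 65, 59 and 67 against 206, 223 and 178. Genes of TGF-beta, BMP and activin signalling had 3 of 72 higher and 3 lower (median 0.19), below the shares over all entries. With equal library totals 0 were higher and 7 lower (median -0.08). Without old fish 3 both counts were 6. ID4, an inhibitor of differentiation factors induced by BMP, fell from 36, 85 and 47 to 4, 6 and 4 (-3.26, SE 0.39), and BMP2 from 29, 30 and 22 to 7, 4 and 13. Wnt ligands, receptors and modulators had 4 of 64 higher and 4 lower (median -0.02), also below those shares. There were 2 higher and 8 lower with equal library totals (median -0.29) and 1 higher without old fish 1. The Wnt list included WNT2BB at 2, 4 and 9 against 60, 46 and 25 and RSPO1, an enhancer of Wnt signalling, at 34, 63 and 73 against 9, 23 and 12.

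HOX genes, which carry positional identity along the body, had 2 of 12 entries higher and 2 lower (median 0.52, and 0.26 with equal library totals). HOXC11A had 405, 357 and 427 in young and 1040, 1335 and 969 in old fish (1.48, SE 0.18). HOXA9 had 50, 44 and 47 in young, 3, 42 and 50 in adult fish and 2, 5 and 6 in old fish, and HOXD4 17, 20 and 22, then 2, 33 and 19, then 0, 3 and 1. Adult fish 1 stood with the old fish in both of the lower genes and the other adult fish with the young ones.

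At the fibre membrane, dystrophin complex and repair genes had 4 of 50 entries higher and 5 lower (median 0.11), close to the shares over all entries. With equal library totals 0 were higher and 6 lower (median -0.17), and 2 were lower without young fish 2 or old fish 3. CAPN1 entry 918278, a calpain, was the extreme, at 34, 125 and 114 in young, 1, 2 and 6 in adult fish and 0 in every old fish, at least 30.3-fold lower, with the order among young fish seen in the neuronal genes. Entry 107207 of that name was lower too (177, 150 and 177 against 80, 95 and 64). Entry 77096 was higher (10, 2 and 2 against 12, 24 and 20). DMD itself had 2598, 2414 and 3252 against 5235, 3284 and 6138 (0.79, SE 0.22), below the limit. Transporters of amino acids and glucose had 7 of 60 entries higher and 11 lower (median 0.04, and -0.22 with equal library totals), and 6 lower without young fish 2. SLC38A3B entry 812637, a glutamine transporter, held the largest share of the family and rose from 4500, 3881 and 4678 to 14358, 15557 and 11895 (1.67, SE 0.16, adjusted p = 0.000117). SLC16A12 entry 620868, a creatine and monocarboxylate transporter, had 98, 65 and 73 against 288, 275 and 273, and SLC6A9 entry 603758, a glycine transporter, 91, 140 and 131 against 25, 14 and 25.

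In the nuclear envelope 2 of 26 entries were higher and 4 lower (median 0.04, and -0.22 with equal library totals), with 2 lower without young fish 2. The higher share was close to that over all entries. LMNB2 entry 135481, a B-type lamin, had 114, 118 and 137 against 50, 51 and 49 (-1.28, SE 0.18). SUN1 entry 57571, which links the lamina to the cytoskeleton, had 65, 57 and 58 against 240, 199 and 127 (1.59, SE 0.23). The abundant SYNE2 entry 238022, its partner in the outer membrane, had 8397, 8278 and 9685 against 15675, 15741 and 11398 and stayed below the limit (0.69, SE 0.19).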

How the data were processed

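RNA was sequenced from whole skeletal muscle of 9 fish with a stranded total RNA kit, paired-end. The submitters' notes and the study's methods name Trimmomatic 0.33, STAR 2.4.2a, featureCounts 1.4.5-p1 and the genome NotFur1; reads matching several places or genes were left out. The deposited values are DESeq-normalised counts per gene, rounded to whole numbers by the authors, and were treated as a signal, not as raw counts; reads on genes were recovered from their scaling factors. No column was left out. Entries whose mean reached 5 (17454) were fitted as log2(value + 1) with limma 3.58.1 (trend, R 4.3.3), with 1 mean per age over 9 libraries, the contrast old minus young and Benjamini-Hochberg adjustment over all entries. Figures and tables used Python 3.11.15, numpy 2.4.6, pandas 2.3.3 and matplotlib 3.10.9. The fit and the recovery of scaling factors were tested on simulated data.

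Each library is 1 fish, so p-values measure the spread between fish. A symbol can stand for several entries (5150 names do), told apart here by their number, and their values are uncertain where copies are near-identical. The named genes were, among entries with a symbol, the 8 called entries of smallest p in each direction whose groups did not overlap, and in each of 58 families up to 2 called members of smallest p in each direction and the most abundant member; others, such as the markers, PAX7, MYOD1 and second entries of a name, were chosen after their values were seen. Some genes that the rule names are not reported here. Members and lists were chosen with earlier results of these data known, and some lists share members. A fold against an age with all libraries at or under 3 normalised counts is a lower bound against that floor in each library. Alternatives were other scalings, filters and added constants, young and old libraries only, robust moderation, a test against the fold limit (treat), the replicate number as a block, and each library left out in turn. Gene symbols are those of the deposited table, and no sequence or coordinate was used.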

Additional observations from a re-analysis of the deposited data

How the results depend on the processing

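No named call changed direction under an alternative run, but family medians and the split of some families did. With a mean of at least 50 required, 1400 entries were called, 832 higher and 568 lower. The median of all entries was then 0.07. Several negative family medians rose, to -1.04 in spindle genes, -1.22 in histones, -0.89 in synaptic genes and -0.51 in sodium-potassium pump subunits. Condensins, cohesins and centromere proteins rose to -0.20, cartilage and bone genes to -0.03 and metalloproteinases to 0.04. Axonal genes (-2.52), ribosome biogenesis factors (-1.17) and tubulins (-0.74) fell. Under treat, which tests against the fold limit itself, 311 were called, 112 higher and 199 lower. With equal library totals 802 were higher and 2605 lower, and the share of higher calls went from 44.6% to 23.5% (29.3% with the top entries left out of the totals); 15 of 58 family medians changed sign. With each library left out in turn 2254 (without young fish 2) to 3260 (without old fish 2) were called, 1086 to 1443 higher and 1153 (without young fish 3) to 1829 lower. Median-of-ratios factors gave 3097 calls, no filter 3543, an added constant of 0.5 3069 and of 5 2825, young and old libraries only 2926 and robust moderation 3080. Of the 192 named calls 60 held in all alternatives and 132 were lost in at least 1. All 132 were lost under treat, the stricter test. Among the other alternatives equal library totals lost the most, 24. With the replicate number as a block (replicate block) 2966 entries were called, 1339 higher and 1627 lower, and deviations of same-numbered fish correlated at -0.027, 0.008 and -0.051, so the numbers were not taken to pair fish. Old fish 3 had the fewest reads (7.96 M), and low entries are the least precise there.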

Other observations

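Several symbols had entries that moved in opposite directions. Of 2527 names with more than 1 tested entry, 247 had at least 2 called, of which 97 moved only up, 119 only down and 31 both ways. Over all entries tested 7.91% were called higher and 9.84% lower. Whether 31 differs from what these shares would give was not tested. DSCAML1, a cell adhesion gene, was lower in entry 956822 (18, 37 and 31 in young against 2, 8 and 1 in old fish) and higher in entry 511648 (103, 109 and 79 against 395, 506 and 430). The lower entry had its lowest young value in young fish 1. This example was chosen after their values were seen.

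Among 121 tested entries of non-coding RNA families 13 were higher (10.7%) and 7 lower (5.79%), near the 7.91% and 9.84% over all entries. Their median was 0.29. It was not computed with equal library totals, which moved the median of all entries from -0.03 to -0.29. SCARNA6, a guide RNA of Cajal bodies, rose in its first entry from 80, 105 and 96 to 504, 971 and 501 (2.74, SE 0.26, limma adjusted p = 0.000117). RNase_MRP, the RNA of a ribosomal RNA processing enzyme, rose from 6502, 3846 and 5766 to 12554, 10189 and 10282 (1.06, SE 0.20). SNORD49, a small nucleolar RNA, fell from 32, 26 and 39 to 4, 10 and 6. None of these groups overlapped.

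KANSL3 entry 305262 was the only entry at or under 3 normalised counts in every old fish and at or above 20 in all young and adult fish, and 2 entries had that pattern for young fish. One of them was KLHL33, at 3, 0 and 0 in young, 37 in every adult fish and 167, 51 and 55 in old fish. TP63, a transcription factor of epidermis, was higher in both of its entries, the first (703567) at 52, 33 and 78 against 368, 218 and 228, while CDH1, KRT4, EPCAM and CLDN1, the other epithelial markers listed, were not called (-0.58, -1.02, -0.67 and 0.89). PAX3B entry 507096, a factor of muscle precursors, rose from 42, 48 and 46 to 169, 81 and 117 (1.35, SE 0.30).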
